A study of Mus musculus with 6 samples.

Results

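The genes described here encode the proteins of the cytosolic ribosome, together with their paralogs, in mouse hippocampus. They were taken by name from the deposited table: names made of Rpl or Rps and a number, with an optional ending of a, a1, x, l or l1, and Rplp0, Rplp1, Rplp2 and Rpsa. The rule found 87 of the 55414 genes in the table. Of these, 77 are core genes, 46 for the large subunit and 31 for the small subunit, and 10 are paralogs: Rpl3l, Rpl6l, Rpl7l1, Rpl10l, Rpl22l1, Rpl32l, Rpl39l, Rps4l, Rps12l1 and Rps27l. Rpl6l, Rpl32l, Rps4l and Rps12l1 are annotated as pseudogenes in GENCODE M21. Rpl6l, Rpl32l and Rps12l1 were counted as paralogs for the endings of their names, a choice made after the table was seen. The core genes lie on 19 chromosomes, with 14 on chromosome 7 and 4 on the X chromosome.

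The ribosome is built of a small subunit, which reads the mRNA, and a large subunit, which joins the amino acids. Each core protein is needed in a single copy per ribosome, apart from the stalk proteins Rplp1 and Rplp2, and cells make the proteins in matched amounts. The mRNAs of nearly all of them begin with a run of pyrimidines, the TOP motif (terminal oligopyrimidine), through which the kinase complex mTORC1 and the RNA-binding protein Larp1 adjust their translation together. Neurons also hold these mRNAs in dendrites and axons, where proteins are made locally.

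RNA was sequenced from 3 hippocampus libraries of CerM mice and 3 of vehicle mice. The library titles give the tissue as brain, and the design and protocols name the hippocampus. The titles call the libraries biological replicates but do not say that each came from its own mouse, so the tests rest on a spread between libraries that may be technical. The labels spell out neither CerM nor its dose, route or duration, and give no strain, sex or age. The series title concerns gut bacteria, ceramides and corticosterone-induced depression, and its design compares hippocampal expression between CerM and vehicle mice. Values are TPM, a unit in which each gene's reads are corrected for its length and for the total of the library. TPM is relative, so a lower value means a smaller share of the measured RNA. It keeps no sequencing depth. Where single libraries are given, they stand in the order of replicates 1, 2 and 3.

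Markers of neurons, oligodendrocytes, astrocytes and hippocampal cells were present in every library. The summed TPM of 6 neuron markers was 3744, 3814 and 3737 in CerM libraries, against 4480.5, 3972 and 3876 in vehicle libraries, without overlap and in the direction of the ribosomal protein genes. Each of the 6 overlapped by itself, with 3 higher and 3 lower in mean in CerM, and without Snap25, the most abundant, the sums were 1890.4, 2159 and 1834 TPM in CerM libraries, against 1933, 1956 and 2027 TPM in vehicle libraries, with overlap. All 5 oligodendrocyte markers had a higher mean in CerM, with sums of 5272, 6134 and 5147 TPM in CerM libraries, against 3292, 5070 and 5800 TPM in vehicle libraries. The part of these cell types in the results was not tested. Neighbouring tissue differed within the groups. The summed TPM of 5 choroid plexus markers was 9278, 303 and 10914 in CerM libraries, against 252, 258 and 15667 in vehicle libraries. That of 5 fat cell markers was 258 in CerM 3 and at most 1.8 in the others. That of 5 neocortex markers was 84.2 in vehicle 1, against 31.2 to 40.1 in the other libraries. Vehicle 1 was also lowest in the sum of 5 hippocampus markers, at 239.9 TPM against 311 to 376 in the other libraries. The same held for 5 astrocyte markers, at 441 TPM against 583 to 770. None of the marker genes tested was called between the groups.

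Transcripts of the group made up 5.51%, 5.54% and 5.13% of all TPM in CerM libraries, against 6.20%, 5.98% and 5.80% in vehicle libraries. The shares did not overlap, with means of 5.39% ± 0.23 in CerM and 5.995% ± 0.20 in vehicle (n = 3 each, errors are SD), a difference of -0.603 percentage points. The level of single core genes, as the mean over 6 libraries, ran from 20.4 TPM (Rpl12) to 2465 TPM (Rps15), a 121-fold range. The 10 most abundant held 29.99% of the group's core TPM. The 5 highest were Rps15, Rplp1 (a stalk protein that helps recruit elongation factors), Rpl13a, Rps27 and Rps24. The 5 lowest were Rpl12, Rpl5, Rps20, Rpl27a and Rpl13. In all, 14 core genes stood above 1000 TPM and 5 below 200 TPM.

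The lowest levels were tied to near-identical copies elsewhere in the table. Ribosomal protein genes have many processed pseudogenes, made by reverse transcription of their mRNAs. A search by sequence found 681 other annotated genes that match a transcript of a protein-coding gene of the group, core or paralog. The match had to reach 95% identity over at least 150 bases and at least 50% of the copy's length. Of these copies, 360 were listed at 0 in every library and 18 averaged over 100 TPM. The copies named here were picked after their values were seen. Rpl12, a protein at the base of the stalk, was at 19.1, 22 and 17.7 TPM in CerM libraries, against 23.2, 18.3 and 22.2 TPM in vehicle libraries. Gm10275, identical to it over the aligned bases, was at 673, 731 and 656 TPM in CerM libraries, against 814, 794 and 865 TPM in vehicle libraries. Thus 97.4% of the TPM of this family was listed under its copies, chiefly Gm10275. Rpl5, which carries the 5S ribosomal RNA into the large subunit, was at 33, 24.9 and 31.2 TPM in CerM libraries, against 30.2, 31.9 and 26.5 TPM in vehicle libraries, and its identical copy Gm15500 was at 584, 496 and 547 TPM in CerM libraries, against 583, 579 and 567 TPM in vehicle libraries. In 10 core genes the copies held more than 50% of the summed TPM. How reads were shared between identical sequences is not given in the sources used here, so the level of such a gene alone is uncertain.

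With the copies summed into their genes, the lowest core level was 200.01 TPM (Rps20) and the highest 2466 TPM (Rps15), a 12.3-fold range. The SD of log2 levels over the 77 genes was 1.16 alone and 0.78 with copies. Median levels of the subunits also moved closer. Alone they were 537 TPM for the 46 large subunit genes and 712 TPM for the 31 small subunit genes, and with copies 790.1 TPM and 732 TPM. For 50 core genes the copies held 1% or less of the family as deposited. That share itself follows from how reads were assigned, which was not tested.

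**Figure D1:**
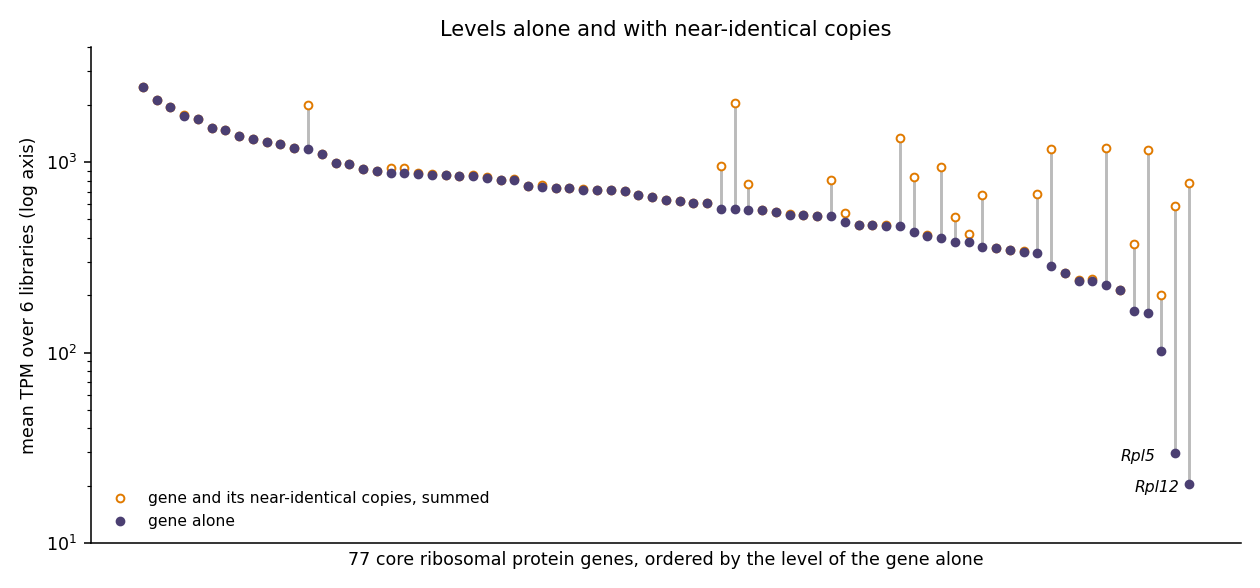
Mean TPM over 6 libraries (log axis) of the 77 core genes, ordered by the level of the gene alone (filled points), with the sum of the gene and its near-identical copies (open points). Rpl12 stands at 20.4 TPM and Rpl5 at 29.6 TPM alone, and at 776 and 589 TPM with copies, inside the range of the other genes.

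Between treatments, most members lay lower in CerM by a small amount. Of the 87 members, 82 averaged at least 1 TPM and were tested. Of these, 79 had a log2 fold change (CerM over vehicle, on log2(TPM + 1)) below 0, with a median of -0.14, which became 0.0078 only when the libraries were scaled on these genes themselves. Over all 14916 tested genes 41.2% lay below 0 and the median was 0.034. No member passed the test: limma with Benjamini-Hochberg adjustment over all tested genes called 0 genes (0% of them), and the smallest adjusted p of a member was 0.989. At an unadjusted p below 0.05 in limma, 13 members were lower in CerM and 0 higher, where 242 of all tested genes (1.62%) were lower and 160 (1.07%) higher. Of the 391 abundant non-member genes with short transcripts described below, 35 were lower and 1 higher at that threshold. The CerM libraries all lay below the vehicle libraries for 25 members (30.5%) and all above for 0 members, against 4.04% and 3.26% of all tested genes. In bulk tissue, fewer cells of a type and less RNA per cell cannot be told apart.

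**Figure D2:**
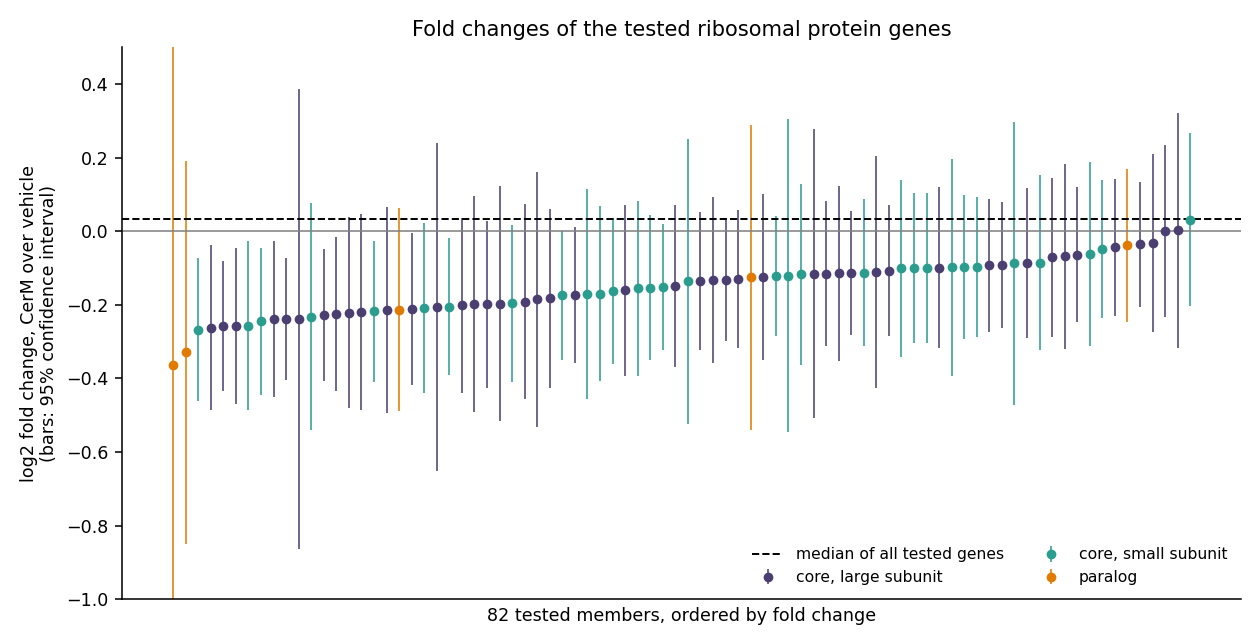
Log2 fold changes (CerM over vehicle) of the 82 tested members, in increasing order, with 95% confidence intervals of the limma fit as bars. The lowest point is -0.36 (the paralog Rps12l1, whose bar leaves the plot at both ends), and 79 lie below 0, where the dashed line marks the median of all tested genes, 0.034.

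The difference was shared by both subunits. Large subunit core genes lay below 0 in 44 of 46 cases (median -0.14), with 15 not overlapping. Small subunit core genes lay below 0 in 30 of 31 cases (median -0.14), with 10 not overlapping. Of all tested genes, 4.04% did not overlap with CerM lower. Of the abundant non-member genes with short transcripts described below, 17.9% did not. The difference of the subunit medians was -0.0052. Summed, the large subunit held 2.99% ± 0.12 of TPM in CerM and 3.32% ± 0.14 in vehicle. The small subunit held 2.38% ± 0.11 in CerM and 2.64% ± 0.062 in vehicle (n = 3 each, errors are SD). The ratio of large to small subunit TPM was 1.25, 1.26 and 1.27 in CerM libraries, against 1.28, 1.25 and 1.24 in vehicle libraries. Its means of 1.259 ± 0.014 and 1.257 ± 0.023 (n = 3 each, errors are SD) differed by less than the spread between libraries.

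The size of the shift differed between libraries of the same group. Each gene's log2(TPM + 1) was set against its mean of the 6 libraries, and the median deviation of the core genes was -0.026, -0.037 and -0.14 in CerM libraries, against 0.12, 0.080 and 0.021 in vehicle libraries. The medians of the groups did not overlap, but CerM 3 and vehicle 1 stood at the ends. Vehicle 1 was the highest library for 45 of the 77 core genes and CerM 3 the lowest for 43. Without CerM 3, 75 of 82 members lay below 0 (median -0.12). Without vehicle 1 it was 74 of 82 (median -0.12), and without both, a setting chosen after the data were seen, 68 of 82 (median -0.10). CerM 3 was also the library highest in fat cell markers. Vehicle 1 was the one highest in neocortex markers and lowest in hippocampus markers. Among the libraries rich in choroid plexus markers, CerM 1 and CerM 3 stood at -0.026 and -0.14 and vehicle 3 at 0.021. Among the others, CerM 2 stood at -0.037, and vehicle 1 and vehicle 2 at 0.12 and 0.080. The part of neighbouring tissue in the shift was not tested beyond these values.

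**Figure D3:**
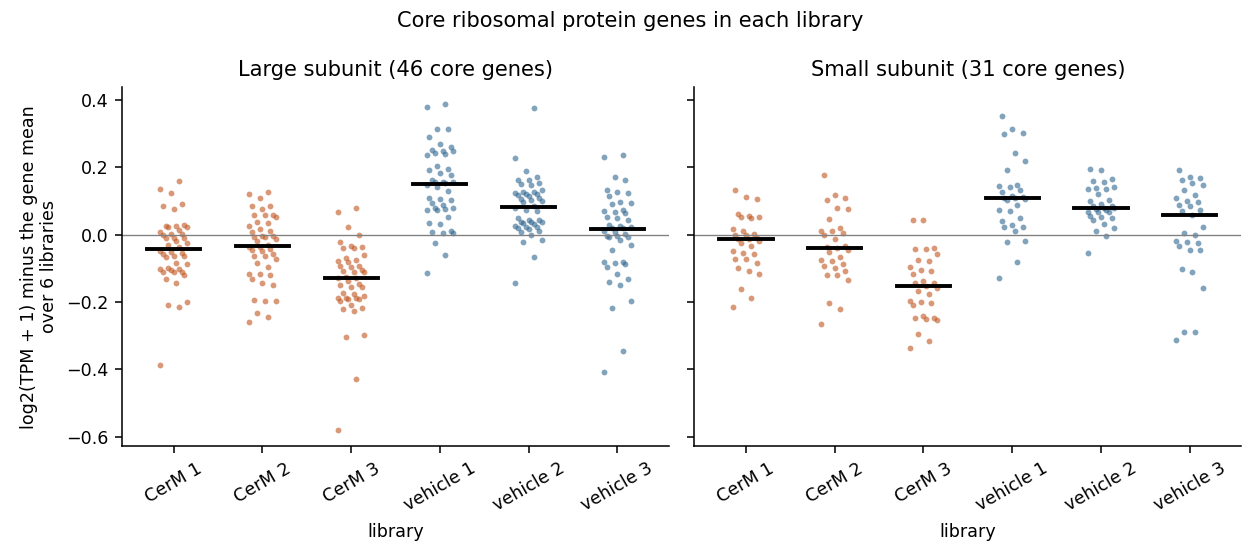
Each point is a core gene, placed by its log2(TPM + 1) minus its mean over 6 libraries, for the large (left) and small (right) subunit, with the CerM libraries left of the vehicle libraries and the library median as a black line. The medians of the 3 CerM libraries lie below those of the 3 vehicle libraries in both panels, lowest in CerM 3 and highest in vehicle 1.

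Abundant genes with short annotated transcripts outside the group leaned the same way. Transcript length here is the median over all GENCODE M21 transcripts of a gene, partial and non-coding ones included. It may therefore differ from the length of the mRNA present in hippocampus. Of 391 non-member genes with a mean of at least 200 TPM and a transcript under 1000 bases, 292 lay below 0 (median -0.084), and 17.9% did not overlap with CerM lower. Over non-member genes the median log2 fold change went up with transcript length, and was 0.00065 under 500 bases and 0.091 at 4000 bases or more. The median transcript length of the tested members was 630.2 bases. With the trend on length removed from each library, 80 of 82 members lay below 0, with a median of -0.12. Across the 77 core genes, the fold change had a Pearson's r of 0.30 with transcript length (Spearman's rho 0.32) and of -0.15 with level (rho -0.080), both on the log2 scale. These are correlations across genes, which share libraries and are not independent replicates.

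Among large subunit genes whose groups did not overlap, Rpl38, Rpl10, Rpl35 and Rpl24 had the largest differences. Rpl10 completes the large subunit late in its assembly. It was at 486, 454 and 487 TPM in CerM libraries, against 547, 578 and 581 TPM in vehicle libraries. The groups did not overlap, and the log2 fold change was -0.26 ± 0.076 (SE), with the smallest unadjusted p among the members, 0.0103, and an adjusted p of 0.989 in limma. The gene's copy Rpl10-ps3, identical over the aligned bases, was at 329, 286 and 249 TPM in CerM libraries, against 248, 268 and 307 TPM in vehicle libraries, with groups that overlapped. With all copies of Rpl10 added, its log2 fold change was -0.14.

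Rpl38, in mice needed for the translation of Hox mRNAs in the embryo, was at 1131, 1305 and 1164 TPM in CerM libraries, against 1560.5, 1427 and 1331 TPM in vehicle libraries. All CerM libraries lay below all vehicle libraries, at -0.26 ± 0.096 (SE) on the log2 scale. Rpl35, which lies by the exit of the peptide tunnel, was at 307, 324 and 294 TPM in CerM libraries, against 400.3, 369.5 and 339 TPM in vehicle libraries (-0.26 ± 0.091, SE). Rpl24, which forms a bridge to the small subunit, was at 659.8, 581 and 597 TPM in CerM libraries, against 760.0, 744 and 666 TPM in vehicle libraries (-0.24 ± 0.091, SE). Neither pair of groups overlapped, and vehicle 3 was the lowest of the vehicle libraries for Rpl38, Rpl35 and Rpl24.

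The stalk of the large subunit is made of Rplp0, Rplp1 and Rplp2 and binds the elongation factors. Rplp1 was at 2097, 2166 and 1717 TPM in CerM libraries, against 2231, 2269.6 and 2252 TPM in vehicle libraries, without overlap. Rplp2 was at 264, 376 and 336 TPM in CerM libraries, against 390.1, 375 and 344 TPM in vehicle libraries, and Rplp0 at 403, 488 and 471 TPM in CerM libraries, against 428, 503 and 496 TPM in vehicle libraries. Both overlapped, and the log2 fold changes of the 3 stalk genes were -0.18 for Rplp1, -0.20 for Rplp2 and -0.068 for Rplp0. The SE of each was between 0.10 and 0.14. The value of Rplp1 was -0.079 without CerM 3, and that of Rplp2 was -0.054 without CerM 1 and -0.31 without CerM 2.

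Rpl5, Rpl11, Rpl23 and Rpl26 take part in the ribosomal stress response, in which free ribosomal proteins bind Mdm2 and so stabilise p53. Rpl11, the partner of Rpl5 on the 5S ribosomal RNA, was at 784, 823 and 742 TPM in CerM libraries, against 935, 925 and 892 TPM in vehicle libraries (-0.23 ± 0.077, SE). Its groups did not overlap. Rpl5 alone was at 0.0024 ± 0.14 (SE), and at -0.086 with its copies. Rpl23 averaged 332 ± 37.5 TPM in CerM and 379.8 ± 66.8 TPM in vehicle (n = 3 each, errors are SD) and overlapped. Rpl26 was at 1434, 1366 and 1498 TPM in CerM libraries, against 1658, 1539 and 1509.6 TPM in vehicle libraries, without overlap, and a log2 fold change of -0.13 ± 0.080 (SE). Of the Mdm2 pathway genes themselves, Mdm2 averaged 27.3 ± 1.77 TPM in CerM and 24.5 ± 1.38 TPM in vehicle, and 3 of the 4 lay above 0 (median 0.14), with 0 called and 0 that did not overlap.

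Rpl41, the shortest ribosomal protein, was at 1263, 1429 and 1386 TPM in CerM libraries, against 1683, 1482 and 1561 TPM in vehicle libraries, a log2 fold change of -0.21 ± 0.088 (SE) with groups that did not overlap. Rpl13a, which in human cells is also released from the ribosome to silence inflammatory mRNAs, was at 1973, 1923 and 1659 TPM in CerM libraries, against 2156, 1993 and 1928 TPM in vehicle libraries and overlapped (-0.13 ± 0.096, SE). Rpl13 had the widest spread of the core genes within both groups, with a coefficient of variation of 25.4% in CerM and 28.4% in vehicle, where the medians over core genes were 7.06% and 6.35%. It was at 176, 170.2 and 107 TPM in CerM libraries, against 210.2, 208 and 121 TPM in vehicle libraries. Replicate 3 was the lowest in each group. Copies held 55.6% of the TPM of the Rpl13 family, and the identical copy Gm12918 was at 191, 200 and 216 TPM in CerM libraries, against 205, 199 and 231 TPM in vehicle libraries, highest in replicate 3 of each group. With copies summed, the coefficient of variation was 7.55% in CerM and 8.85% in vehicle. Rpl27a, of which copies held 86.1% of the TPM, was at 157, 151 and 140.2 TPM in CerM libraries, against 153, 174 and 189 TPM in vehicle libraries and overlapped.

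**Figure D4:**
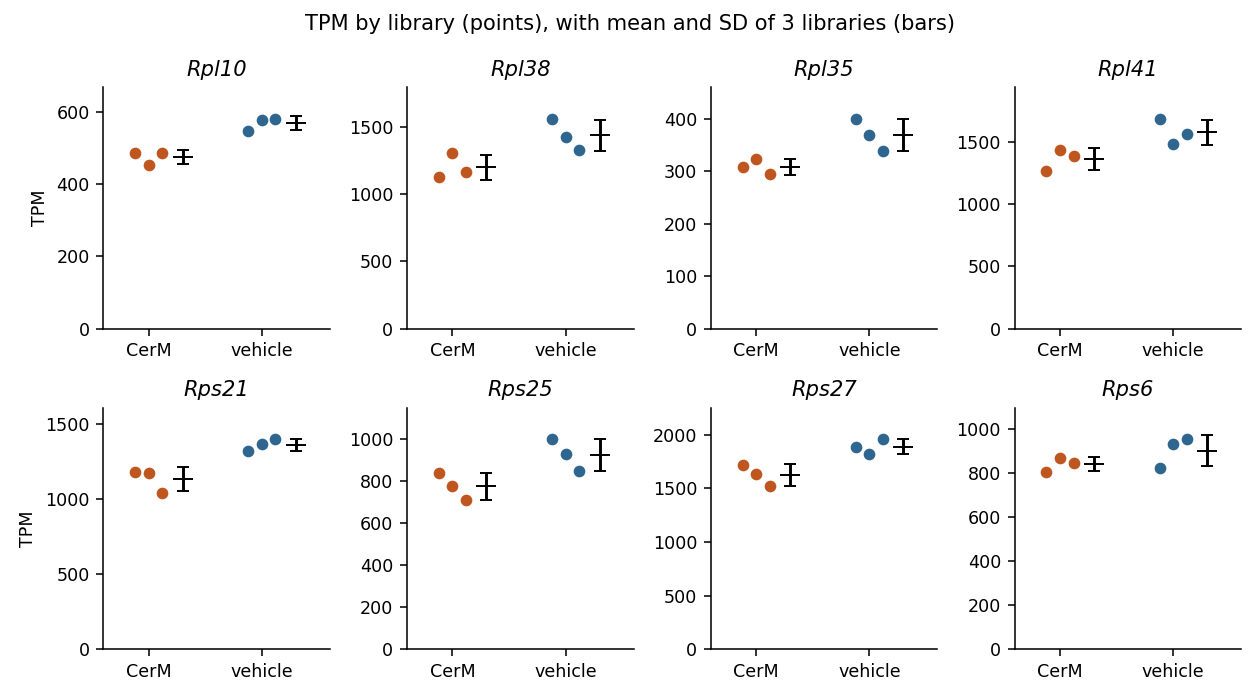
TPM of 4 large subunit genes (top) and 4 small subunit genes (bottom) in each library, with CerM left of vehicle and the mean and SD of 3 libraries beside the points. The CerM libraries lie below the vehicle libraries for all but Rps6, whose groups overlap. The genes shown do not stand for the group, as 25 of the 77 core genes (32.5%) were without overlap.

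Among small subunit genes whose groups did not overlap, Rps21, Rps25, Rps15a and Rps27 had the largest differences. Rps21, one of the proteins that only eukaryotic ribosomes have, was at 1179, 1175 and 1040.2 TPM in CerM libraries, against 1318, 1367 and 1397 TPM in vehicle libraries. The groups did not overlap, and the log2 fold change was -0.27 ± 0.083 (SE), the largest decrease in value among core genes (unadjusted p = 0.0135, adjusted p = 0.989 in limma). Rps25, which viral and some cellular mRNAs with internal entry sites need for translation, was at 838, 777 and 710.4 TPM in CerM libraries, against 999, 930.1 and 848 TPM in vehicle libraries (-0.26 ± 0.099, SE). Rps15a was at 644, 604 and 547 TPM in CerM libraries, against 713, 715 and 696 TPM in vehicle libraries (-0.24 ± 0.085, SE). CerM 3 was the lowest library for each of the 3 genes.

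Rps6, the substrate of the S6 kinases and a common readout of mTORC1 activity at the protein level, was at 809, 871 and 846 TPM in CerM libraries, against 823, 933 and 955 TPM in vehicle libraries. Its groups overlapped, at -0.10 ± 0.087 (SE) on the log2 scale. Rps19, the gene most often mutated in Diamond-Blackfan anaemia in people, was at 239, 226 and 193 TPM in CerM libraries, against 292, 264 and 219 TPM in vehicle libraries. It overlapped as well, at -0.23 ± 0.13 (SE). Rps3, which lines the entry channel for mRNA and also acts in DNA repair, was at 753, 801 and 627 TPM in CerM libraries, against 917, 809 and 610.0 TPM in vehicle libraries and overlapped, with vehicle 3 the lowest of all libraries.

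Rpsa, also known as the laminin receptor, was at 603, 632 and 544 TPM in CerM libraries, against 731, 718 and 562 TPM in vehicle libraries (-0.17 ± 0.12, SE), with overlap. Rps27a is made as a fusion with ubiquitin. It was at 269.9, 217 and 269 TPM in CerM libraries, against 281, 263 and 272 TPM in vehicle libraries, a log2 fold change of -0.12 ± 0.11 (SE), and overlapped. The most abundant member, Rps15, was at 2114, 2534 and 2221 TPM in CerM libraries, against 2716, 2449 and 2758 TPM in vehicle libraries and Rps24 at 1682, 1460.4 and 1572 TPM in CerM libraries, against 1920.5, 1803 and 1679 TPM in vehicle libraries. In both, 1 CerM library lay above the lowest vehicle library. Rps20 was at 99.7, 92.3 and 95.1 TPM in CerM libraries, against 128, 113 and 80.6 TPM in vehicle libraries, with vehicle 3 the lowest library.

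In all, 3 members did not lie below 0, and all overlapped between groups. Among them, Rpl10a was at 528, 502 and 428 TPM in CerM libraries, against 509, 462 and 481 TPM in vehicle libraries, a log2 fold change of 0.00072 ± 0.10 (SE), and Rpl5 has been given above. With each library scaled on the group itself, relative values above 0 included 0.15 ± 0.086 for Rpl10a and 0.15 ± 0.14 for Rpl5. Among core genes the largest relative decreases were -0.12 ± 0.080 for Rps21, -0.11 ± 0.086 for Rpl38 and -0.11 ± 0.092 for Rpl10 (all SE). None passed: the smallest adjusted p of a member on this scale was 0.559. The direction of Rpl10a and Rpl5 turned under several alternatives, given in the closing section.

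The fold changes of copy-rich genes depended on whether the copies were counted. With copies summed, 75 of 77 core genes lay below 0 (median -0.15). Among the 50 core genes with next to no signal in copies, 49 lay below 0 (median -0.16). Rpl12 with its copies was at 692, 753 and 674 TPM in CerM libraries, against 837, 813 and 889 TPM in vehicle libraries, a log2 fold change of -0.26 in place of -0.11, and the groups no longer overlapped. Rps29 was at 1274, 1178 and 919.6 TPM in CerM libraries, against 1443, 1294 and 950.5 TPM in vehicle libraries and its copy Gm14303 at 742, 1095 and 942 TPM in CerM libraries, against 617, 606 and 939 TPM in vehicle libraries. In the pair the gene was lowest in CerM 3 and the copy lowest in vehicle 2. The sum had a log2 fold change of 0.068, against -0.12 for Rps29 alone. Gm14303 is annotated at 171 bases and the transcripts of Rps29 at a median of 425.5. TPM is corrected for length, so reads on a shorter copy weigh more in such a sum. Rpl37 stood at -0.22 alone and -0.32 with its copies, chiefly Rpl37rt, which was at 371, 352 and 305 TPM in CerM libraries, against 531, 438 and 421 TPM in vehicle libraries, without overlap.

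Some paralogs can take the place of a core protein in particular tissues. Of the 10, 5 were tested, and all 5 lay below 0 (median -0.21), with 0 called and all overlapping. Together they held 0.0260% ± 0.0024 of TPM in CerM and 0.0301% ± 0.0025 in vehicle (n = 3 each, errors are SD). Rpl22l1, which can take the place of Rpl22 and is held down by Rpl22 in mice, was at 124, 82.7 and 80 TPM in CerM libraries, against 137, 134 and 88.9 TPM in vehicle libraries. Rpl22 was at 253, 215 and 221 TPM in CerM libraries, against 260.3, 260.0 and 225 TPM in vehicle libraries. Rpl22l1 had the largest decrease in value of the members over 10 TPM, -0.33 ± 0.22 (SE), but its interval ran from -0.85 to 0.19 (95% confidence), and CerM 1 lay above vehicle 3.

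Rps27l, a target of p53 in people, was at 65, 45.9 and 62.4 TPM in CerM libraries, against 50.5, 68.8 and 69.8 TPM in vehicle libraries. Its core gene Rps27, a zinc-binding protein of the small subunit, was at 1719.8, 1631 and 1521 TPM in CerM libraries, against 1888, 1815 and 1956 TPM in vehicle libraries, without overlap (-0.22 ± 0.082, SE). The coding sequences of this pair are shown because reads can be told apart only at the bases that differ. They are taken from the GENCODE M21 transcripts, on chromosome 3 for Rps27 and chromosome 9 for Rps27l, and capitals in Rps27l mark the bases that differ from Rps27.
Rps27: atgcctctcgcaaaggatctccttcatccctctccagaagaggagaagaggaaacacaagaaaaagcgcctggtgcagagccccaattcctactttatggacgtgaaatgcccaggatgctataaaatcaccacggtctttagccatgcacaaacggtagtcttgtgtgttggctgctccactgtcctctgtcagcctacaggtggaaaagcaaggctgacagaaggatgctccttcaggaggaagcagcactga
Rps27l: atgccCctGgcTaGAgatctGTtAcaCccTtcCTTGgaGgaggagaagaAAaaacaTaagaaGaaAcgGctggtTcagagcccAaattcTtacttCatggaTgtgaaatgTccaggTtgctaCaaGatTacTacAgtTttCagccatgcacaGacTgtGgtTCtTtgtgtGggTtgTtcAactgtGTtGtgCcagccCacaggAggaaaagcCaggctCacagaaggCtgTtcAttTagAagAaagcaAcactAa
Both hold 255 bases, of which 194 (76.1%) are identical. The 61 differences fall in 54 of the 85 codons, and only 3 codons code for another amino acid. The coding sequences of Rpl22l1 and Rpl22 are 75.7% identical over 354 aligned bases, and those of Rpl7l1 and Rpl7 are 66.9% identical over 680.

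The paralog's level as a percent of its core gene's was compared over libraries for 4 pairs. The ratio of Rpl22l1 to Rpl22 was 49.1%, 38.5% and 36.2% in CerM libraries, against 52.6%, 51.7% and 39.6% in vehicle libraries. The difference in log2 ratio was -0.22, with an exact two-sided permutation p of 0.2 (0.6 adjusted over 4 pairs), where 0.1 is the smallest p that 3 against 3 libraries can give. The ratio of Rps27l to Rps27 was 3.78%, 2.81% and 4.10% in CerM libraries, against 2.68%, 3.79% and 3.57% in vehicle libraries. Its log2 difference was 0.092 (exact permutation p = 0.6, adjusted 0.7). The groups overlapped in both pairs, and the value of Rps27l was below 0 without CerM 3 (-0.017) or without vehicle 1 (-0.058).

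Rpl7l1, a nucleolar relative of Rpl7, stood at 11.2% ± 1.07 of Rpl7 in CerM and 10.9% ± 0.12 in vehicle (SD). Rps4l stood at 8.63% ± 1.03 of Rps4x in CerM and 9.69% ± 1.07 in vehicle (SD), and both pairs overlapped. Rpl7 itself averaged 456 ± 44 TPM in CerM and 478 ± 10.9 TPM in vehicle and Rps4x 613 ± 36.4 TPM in CerM and 634 ± 22.5 TPM in vehicle (SD), with log2 fold changes of -0.070 and -0.049. The other paralogs were near or at the floor of the table. Rps12l1 was at 0.08, 4.32 and 0 TPM in CerM libraries, against 0, 3.27 and 1.86 TPM in vehicle libraries, so its fold change of -0.36 ± 0.76 (SE) rests on 3 libraries above 1 TPM. Rps12 was at 797, 783 and 792 TPM in CerM libraries, against 841, 865 and 876 TPM in vehicle libraries, without overlap.

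Rpl3l, which replaces Rpl3 in skeletal muscle and heart, was at 0.41, 0.16 and 0.33 TPM in CerM libraries, against 0.31, 0.47 and 0.25 TPM in vehicle libraries, below the test's minimum. Rpl3 was at 897, 929 and 816 TPM in CerM libraries, against 897, 916 and 905 TPM in vehicle libraries (-0.043 ± 0.080, SE). Rpl39l, a testis form of Rpl39, was at 0, 0.23 and 0.44 TPM in CerM libraries, against 0.27, 0 and 0.4 TPM in vehicle libraries. Rpl39 was at 209, 227 and 155 TPM in CerM libraries, against 272, 232 and 179 TPM in vehicle libraries and overlapped. Rpl10l, a testis form of Rpl10 in mice, and Rpl6l and Rpl32l were listed at 0 in all 6 libraries, while Rpl6 averaged 523 ± 6.49 TPM in CerM and 566 ± 20.7 TPM in vehicle and Rpl32 793 ± 62.6 TPM in CerM and 908 ± 111 TPM in vehicle (SD). The Rpl10l and Rpl39l coding sequences are 84.8% and 85.3% identical to those of Rpl10 and Rpl39.

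**Figure D5:**
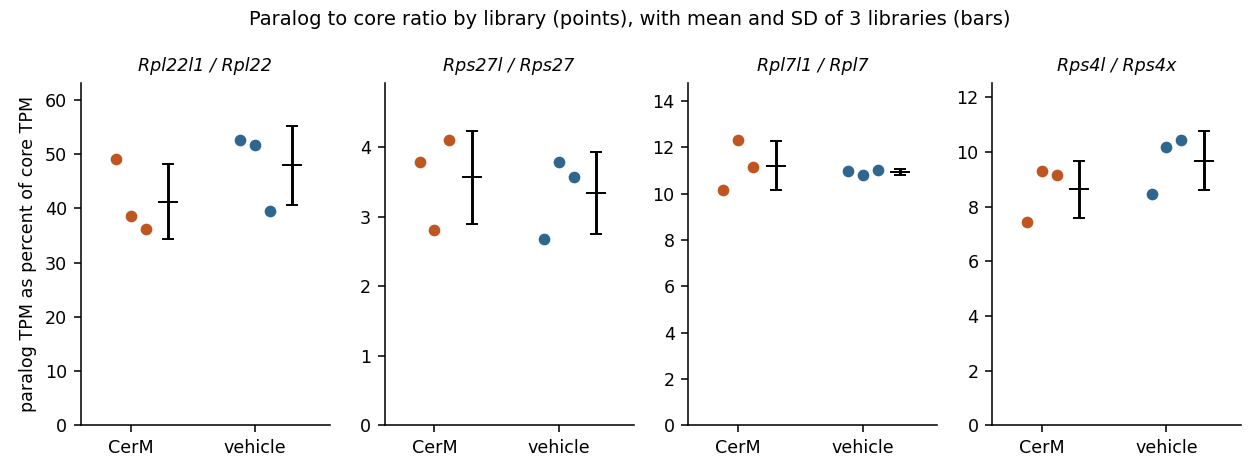
TPM of 4 paralogs as a percent of the TPM of their core genes in each library, with CerM left of vehicle and the mean and SD of 3 libraries beside the points. In each pair the libraries of both groups overlap, and the pairs differ in level, from 36.2% to 52.6% for Rpl22l1 and from 2.68% to 4.10% for Rps27l.

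The start sites of the genes were examined for runs of pyrimidines, as in the TOP motif, and for motifs of promoters. RefSeq promoters (build GRCm38.p6, not the authors' build) were found for 64 members, 57 of them core genes. Where a gene had several promoters, the longest run among them was taken, and a motif counted if any of them held it. The longest run of C and T that touches the 10 bases either side of an annotated start had a median of 7 bases in core genes and 4 over all genes with a promoter. A run of 8 bases or more was present in 47.4% of core genes and 15.8% of all 27025 genes. A run of 10 or more was present in 38.6% and 8.14%. In windows of 250 bases before to 50 after the start, on both strands, CTTCCG was found in 70.2% of core promoters and 18.8% of all. The motif TATAAA was found in 10.5% of core promoters and 15.7% of all.

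The windows from 40 bases before to 20 after the start are shown for the 4 large and 4 small subunit genes named first above for their differences, and for Rpl10a and Rpl5, which lay near 0. Capitals mark the pyrimidine run, and for a gene with several promoters the one with the longest run is shown.
Rpl38, chr11:114668540-114668599, plus strand: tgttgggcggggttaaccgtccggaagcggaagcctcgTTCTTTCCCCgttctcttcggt
Rpl10, chrX:74270776-74270835, plus strand: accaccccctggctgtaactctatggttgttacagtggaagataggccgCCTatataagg
Rpl35, chr2:39005112-39005171, minus strand: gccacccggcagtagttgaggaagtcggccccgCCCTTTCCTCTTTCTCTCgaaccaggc
Rpl24, chr16:55966235-55966294, plus strand: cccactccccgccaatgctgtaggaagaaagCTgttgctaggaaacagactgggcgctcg
Rps21, chr2:180257339-180257398, plus strand: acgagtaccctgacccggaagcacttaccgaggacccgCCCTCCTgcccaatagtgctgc
Rps25, chr9:44407674-44407733, plus strand: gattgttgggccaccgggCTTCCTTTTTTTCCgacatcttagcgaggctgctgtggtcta
Rps15a, chr7:118116128-118116187, minus strand: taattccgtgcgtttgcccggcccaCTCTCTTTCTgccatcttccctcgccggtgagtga
Rps27, chr3:90213629-90213688, minus strand: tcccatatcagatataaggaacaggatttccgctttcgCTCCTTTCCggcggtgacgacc
Rpl10a, chr17:28328431-28328490, plus strand: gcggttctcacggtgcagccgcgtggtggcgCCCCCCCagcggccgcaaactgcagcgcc
Rpl5, chr5:107900488-107900547, plus strand: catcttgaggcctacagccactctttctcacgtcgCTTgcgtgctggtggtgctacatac
The run is 18 bases in Rpl35 and 14 in Rps25 but 3 in Rpl10 and 2 in Rpl24. In Rps25 and Rps15a it lies wholly before the annotated start, so a run counted here need not be a TOP motif of the mRNA. The part of the TOP motif in the fold changes was not tested. All 27 core genes with a run of 8 or more lay below 0 (median -0.15), as did 28 of the 30 with a shorter run (median -0.13). Divided at 5 bases, the order of the medians turned, with -0.14 for the 42 genes with longer runs and -0.15 for the 15 with shorter ones. The annotated start may differ from the start used in hippocampus by some bases, which moves the run.

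Other genes of the translation machinery were set beside the group. Among ribosomal protein genes that the name rule leaves out, Fau, made as a fusion with a ubiquitin-like protein, averaged 629 ± 56.2 TPM in CerM and 718 ± 34.5 TPM in vehicle, with overlap. Rpl36al, a large subunit protein, averaged 296 ± 27.1 TPM in CerM and 343 ± 18.3 TPM in vehicle, without overlap. Rack1, a scaffold for kinases on the small subunit, averaged 279 ± 21.4 TPM in CerM and 285 ± 11.5 TPM in vehicle (SD), and overlapped. The log2 fold changes were -0.19 ± 0.092 for Fau, -0.22 ± 0.096 for Rpl36al and -0.035 ± 0.087 for Rack1 (SE), and none passed the test in limma. Of 17 elongation and other TOP mRNA genes, 12 lay below 0 (median -0.074). Of all tested genes 41.2% lay below 0, and of non-member genes with a mean of 200 to 500 TPM 69.2% did. Naca, part of the complex that meets the new peptide at the ribosome, was at 440.4, 382 and 470.3 TPM in CerM libraries, against 497, 502 and 488 TPM in vehicle libraries (-0.21 ± 0.095, SE). It was the one gene of the list (5.88%) without overlap, where 4.04% of all tested genes were lower in CerM in that way. The elongation factor Eef1a1 averaged 3764 ± 169 TPM in CerM and 3628 ± 239 TPM in vehicle (SD), at 0.054 on the log2 scale.

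Of 23 initiation factor genes, 15 lay below 0 (median -0.032), with 0 that did not overlap, where 41.2% of all tested genes lay below 0. The smallest p was that of Eif3k, at 294 ± 33.3 TPM in CerM and 321 ± 14 TPM in vehicle (SD). Scaled on the ribosomal protein genes, the medians of the elongation and initiation lists were 0.075 and 0.12, against 0.17 over all tested genes. Of 40 ribosome biogenesis genes, 26 lay below 0 (median -0.030), with 4 lower and 1 higher in CerM without overlap, where 4.04% and 3.26% of all tested genes were lower and higher in that way. The same scaling put their median at 0.12, below the median of all tested genes on that scale, 0.17. Lyar, a nucleolar protein of rRNA transcription, was at 10.6, 10 and 10.2 TPM in CerM libraries, against 16, 14.7 and 14.2 TPM in vehicle libraries. Its log2 fold change was -0.50 ± 0.11 (SE), with the smallest unadjusted p of the 40 genes, 0.00234, and no call after adjustment in limma.

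Of the 15 genes that control TOP mRNAs and mTORC1, 2 lay below 0 and 13 above (median 0.12). Of all tested genes 41.2% lay below 0 (median 0.034), and of non-member genes with transcripts of 2000 to 4000 bases 32.4% did (median 0.061). The median transcript length of the list was 2192 bases. Ddit4, an inhibitor of mTORC1 that responds to stress and glucocorticoids, was at 51.1, 56.7 and 43.5 TPM in CerM libraries, against 35, 39.6 and 34.7 TPM in vehicle libraries. All CerM libraries lay above all vehicle libraries, at 0.45 ± 0.12 (SE), with the smallest unadjusted p of the 15 genes, 0.00734, and no call after adjustment in limma. Rps6kb2 and Sesn2 were the other 2 genes of the list without overlap, both higher in CerM, as were 3.26% of all tested genes, and both named after their values were seen. Rps6kb2, an S6 kinase, was at 14.3, 15 and 11 TPM in CerM libraries, against 8.43, 9.35 and 9.43 TPM in vehicle libraries, and Sesn2, a sensor of amino acids, at 9.62, 11.9 and 9.56 TPM in CerM libraries, against 7.33, 9.53 and 9.51 TPM in vehicle libraries. Larp1, the TOP mRNA-binding protein, averaged 29.2 ± 4.88 TPM in CerM and 26.5 ± 2.3 TPM in vehicle (SD) and overlapped. With the trend on length removed, 12 of the 15 lay above 0 (median 0.058).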

How the data were processed

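Per the labels' protocols, hippocampal RNA was isolated with TRIzol, freed of DNA with DNase I and turned into Illumina TruSeq libraries. The submitters' processing notes name GRCm39 as the genome build and list HISAT2, StringTie and RSEM as tools, without roles or versions. The deposited table holds TPM values from the authors for 6 libraries, with totals of 993379 to 995403 per library. Sequencing depth is unknown, so precision rests on the spread over 3 libraries per group and no counting interval is given.

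Members were found by name. Genes with a mean of at least 1 TPM were tested with limma 3.58.1 (R 4.3.3) on log2(TPM + 1) with a variance trend, two-sided, with Benjamini-Hochberg adjustment over all 14916 tested genes and a threshold of 0.05. Fold changes are CerM over vehicle and understate those of low genes. Paralog ratios were compared by exact permutation tests. Members, lists and the rule for named genes were chosen with earlier results of these data known. That rule takes the paralogs with their core genes, the 5 highest and 5 lowest core genes, the largest differences without overlap per subunit, the smallest p per subunit and per list, 16 genes fixed by name and the largest differences relative to the group. Some genes it gives are not reported here.

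Copies were sought with blastn 2.17.0 among GENCODE M21 transcripts. This annotation and the RefSeq promoters belong to GRCm38, and were matched by Ensembl identifier or symbol, so coordinates are those of GRCm38.p6. Software further included Python 3.11.15, pandas 2.3.3, numpy 2.4.6, scipy 1.17.1, Biopython 1.88 and matplotlib 3.10.9. Alternatives changed the pseudocount, the TPM minimum, the scaling, the variance model, sample weights, the replicate block, the trend on length and the libraries.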

Additional observations from a re-analysis of the deposited data

How the results depend on the processing

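The median log2 fold change of the tested members stayed below 0 in 19 of 20 alternatives, from -0.18 with sample weights (82 of 82 below 0) to -0.095 with quantile scaling (71 of 82). The exception was scaling on the ribosomal protein genes, which sets them near 0 by construction (0.0078) and moved the median of all genes to 0.17. The replicate block and the fit without a variance trend cannot move a fold change in this balanced design. Their agreement on the median of the members was thus fixed in advance. Leaving out each library gave -0.17 to -0.12 for that median, -0.036 to 0.032 for the large minus small subunit difference, -0.70 to -0.47 points for the share of TPM, -0.35 to -0.13 for the log2 ratio of Rpl22l1 to Rpl22 and -0.058 to 0.25 for that of Rps27l to Rps27. It gave 1 to 8 called genes in place of 0, with the 8 found without CerM 3, and 0 members among them. Chosen after seeing the data, leaving out both vehicle 1 and CerM 3 gave 1 called gene and a subunit difference of 0.037, and summing near-identical copies gave a median of -0.15. The replicate block, which cannot move the median, left it at -0.14 with 0 called. Same-numbered libraries correlated at 0.0083, 0.20 and 0.22 after removal of group means, and differently numbered ones at -0.21 to 0.065. The values of 0.20 and 0.22 were thus the highest. The main fit did not take the numbers as pairs, and whether libraries of the same number share a batch was not tested. Of 939 combinations of 47 named genes and settings, 54 turned the sign, and 25 genes kept theirs throughout. Some of these settings cannot turn a gene's sign, such as the replicate block and the fit without a variance trend. Scaling on the members turned Eif3k (0.016), Rpl12 (0.033), Rpl13a (0.018), Rpl22 (0.036), Rpl26 (0.020), Rpl3 (0.11), Rpl6 (0.038), Rpl7 (0.080), Rpl7l1 (0.11), Rplp0 (0.082), Rps12 (0.029), Rps20 (0.013), Rps27a (0.033), Rps27l (0.023), Rps3 (0.064), Rps4x (0.10) and Rps6 (0.050). Quantile scaling turned Rpl3 (0.032), Rpl5 (-0.011), Rpl7 (0.013), Rplp0 (0.0040) and Rps4x (0.025), and median-ratio scaling Rpl10a (-0.028) and Rpl5 (-0.025). Sample weights turned Rpl10a (-0.027) and Rpl5 (-0.014), removal of the length trend Rpl10a (-0.0076) and Rpl5 (-0.0050), and summed copies Rpl10a (-0.060) and Rpl5 (-0.086). Without both vehicle 1 and CerM 3 it turned for Rpl12 (0.021), Rpl13 (0.13), Rpl3 (0.0030), Rpl39 (0.094), Rpl5 (-0.018), Rps20 (0.010) and Rps3 (0.14). With each library left out, the log2 fold change ran from -0.062 to 0.089 for Rpl10a, -0.083 to 0.011 for Rpl3, -0.076 to 0.12 for Rpl5, -0.12 to 0.011 for Rpl7, -0.14 to 0.015 for Rplp0, -1.15 to 0.083 for Rps12l1, -0.33 to 0.0060 for Rps20, -0.27 to 0.030 for Rps27l and -0.25 to 0.041 for Rps3. A further 19 of the 47 named genes kept their sign but moved by more than 1.5 times without some library, among them Rpl13 (-0.50 to -0.0083), Rpl39 (-0.37 to -0.044), Rpl23 (-0.33 to -0.074), Rplp1 (-0.25 to -0.079), Rplp2 (-0.31 to -0.054), Rpsa (-0.29 to -0.10), Rps27a (-0.17 to -0.013) and Rpl22l1 (-0.53 to -0.22). The cause of these changes was not tested. TPM keeps no depth, so no limit of detection is given for the paralogs listed at 0.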
